A study of Mus musculus with 34 samples.

Results

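The genes described here are 42 cell cycle genes of the mouse, chosen by symbol as a list of replication and mitosis genes with the cyclins and inhibitors that govern entry into the cycle. All 42 were found among the 51826 gene IDs of the count tables, of which 51633 carried a symbol, and 41 of them had enough reads to be tested. They were followed through 34 polyA RNA libraries of sorted stromal cells, which the study's title places in a survey of transcription by tissue environment. Cells had been sorted as CD45-CD31-Epcam-PDPN+, so as to set aside blood, endothelial and epithelial cells, and then divided by PDGFRA, a growth factor receptor of fibroblasts. PDGFRA- mesothelial cells, which line the body cavities, came from omentum, mesentery and epididymal fat with 3 libraries each. PDGFRA+ fibroblasts came from the same 3 depots, from bone (titled bone associated), lymph node (titled sLN), brown adipose tissue and inguinal fat with 3 libraries each, and from pancreas and spleen with 2 each. Every library carries the label GFPneg, the source of that fluorescent protein is not stated, and strain, age, sex, number of animals and treatment are not given in the labels. Nothing in the labels says that replicate libraries came from separate animals, so each p-value reflects the spread among these libraries and no more, which may be technical.

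The cell cycle is driven by cyclins, which activate their cyclin-dependent kinases (CDKs) in turn. D-type cyclins answer to growth signals in G1, cyclin E and the E2F factors open S phase, and the MCM helicase is loaded on replication origins by Cdc6 and Cdt1 and fired with Cdc45. Cyclins A and B with Cdk1 then drive mitosis, until the anaphase-promoting complex destroys the cyclins. Mitotic genes are switched on late by FoxM1 and MuvB complexes at promoter elements called CHR, and many of their promoters also hold CCAAT boxes. CDK inhibitors such as p21 (Cdkn1a) and p27 (Cdkn1b) hold cells out of the cycle, and most stromal cells of adult tissue are at rest.

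Libraries held 28.7 M to 42.3 M counts, with a median of 33.5 M. Levels of single genes are given in CPM, counts scaled to library size and to edgeR's TMM factor of the library. Summed levels of gene lists were scaled to library size alone. Labels were checked against defining markers. Pdgfra averaged between 6.61 and 11.8 CPM in the 3 mesothelial groups, against 394 to 1195 CPM in the 9 fibroblast groups, and the mesothelial gene Upk3b averaged 3869 to 3965 CPM, against at most 207 CPM. The sum of 10 fibroblast markers did not separate the cell types. It was 22960 to 29300 CPM in mesothelial libraries and 21540 to 177100 CPM in fibroblast libraries. Lymph node libraries 1 and 2 and pancreas library 2 lay within the mesothelial range or below it. Ptprc, which encodes the CD45 used to exclude blood cells, reached 5.83 CPM at most. The summed level of 10 pancreatic acinar genes passed 1000 CPM in 8 libraries: 1 of omentum and 2 of mesentery mesothelial cells, 2 of omentum and 1 of mesentery fibroblasts and both of pancreas. The 18 immediate early genes, which respond within minutes to cell handling or signals, summed to 829 and 1348 CPM in the pancreas libraries, against 4010 to 21740 CPM in the other libraries.

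Set per kilobase of exon and averaged over the 12 groups, Pcna, the sliding clamp of DNA polymerase, stood highest of the members at 22.1 CPM per kb. Cdkn1a followed at 21.8 and Ccnd2 at 16.8 CPM per kb, whereas the mitotic genes were lower, with Ccnb1 at 3.06, Top2a at 2.23 and Mki67, which encodes the proliferation antigen Ki-67, at 0.812 CPM per kb. Cdkn2a, which encodes the senescence-associated inhibitors p16 and p19, had 0.152 CPM in 1 omentum fibroblast library and 0.142 CPM in 1 bone library and less or nothing elsewhere, so it was not tested.

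Members differed in how far their levels ran in parallel across the groups. Over the 12 group means of log2 CPM, the mean profile of the 24 S phase, G2 and mitosis members ran in parallel with Aurka, the mitotic kinase Aurora A (Pearson r = 0.97 with the mean of the others), with Ube2c, Kif11 and Top2a close behind (r = 0.95 or 0.96). Least parallel were Cdkn1b at r = -0.71, the D-type cyclin Ccnd2 at -0.27 and E2f1 at -0.18, and several MCM subunits and Tpx2 lay near 0. The 10 genes outside the members with the most similar profile were Cdca8, Spc24, Aspm, Ckap2l, Ncapg, Nek2, Kif22, Prc1, Spc25 and Ube2t (r = 0.93 to 0.96). All but Ube2t belong to a list of 58 other mitosis genes used here. These correlations describe 12 points that share libraries and depth, and have no test.

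**Figure D1:**
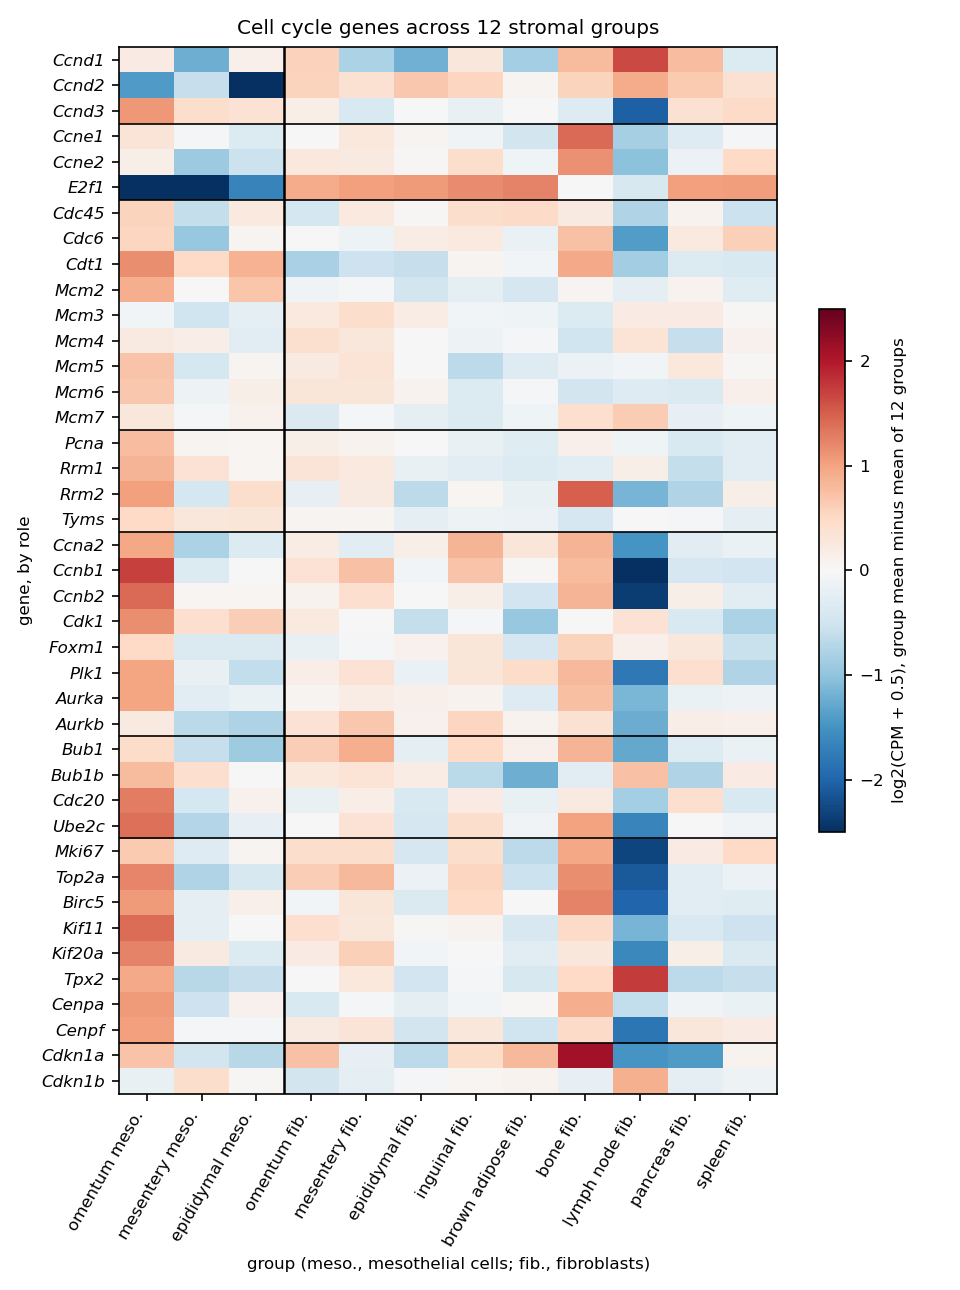
Level of the 41 tested members (rows, by role) in the 12 groups (columns), as the group mean of log2(CPM + 0.5) minus the gene's mean over the groups. Of the 20 G2 and mitosis members, 14 have their highest mean in omentum mesothelial cells and 16 their lowest in lymph node fibroblasts, while Tpx2, Ccnd1 and Cdkn1b are high in lymph node fibroblasts.

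Promoters are shown for the 3 members called in the most comparisons among those with a CHR motif. Sequences are RefSeq's, build GRCm38.p6, and hold the 250 bases before the annotated start, 5′ to 3′ on the gene's strand. Capitals mark TTTGAA or TTCGAA (CHR) and CCAAT, each on either strand. In the Ube2c promoter a CCAAT and an inverted CCAAT share bases.
Ube2c, chr2:164769679-164769928, plus strand: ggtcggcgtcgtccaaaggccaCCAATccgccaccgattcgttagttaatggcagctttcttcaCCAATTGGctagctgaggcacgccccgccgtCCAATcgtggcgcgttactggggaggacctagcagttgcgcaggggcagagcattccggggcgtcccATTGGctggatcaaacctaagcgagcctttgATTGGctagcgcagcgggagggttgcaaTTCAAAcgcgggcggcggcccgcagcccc
Top2a, chr11:99024190-99024439, minus strand: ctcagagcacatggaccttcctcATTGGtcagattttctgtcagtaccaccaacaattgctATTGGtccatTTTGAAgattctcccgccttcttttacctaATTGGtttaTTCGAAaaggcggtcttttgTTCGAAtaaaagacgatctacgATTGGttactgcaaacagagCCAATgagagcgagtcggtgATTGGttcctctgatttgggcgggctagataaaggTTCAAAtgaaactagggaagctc
Kif11, chr19:37376132-37376381, plus strand: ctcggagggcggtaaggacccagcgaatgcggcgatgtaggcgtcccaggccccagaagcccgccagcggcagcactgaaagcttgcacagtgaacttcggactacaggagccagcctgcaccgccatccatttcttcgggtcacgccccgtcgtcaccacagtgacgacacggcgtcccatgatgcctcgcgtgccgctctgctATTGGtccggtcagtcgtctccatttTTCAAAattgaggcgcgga
Ube2c held 1 CHR and 6 CCAAT matches, Top2a held 4 and 6, and Kif11 held 1 of each. Promoters were at hand for 33 members. Among the 19 S phase, G2 and mitosis members with one, 8 held a CHR and 17 held a CCAAT, or 42.1% and 89.5%, where 17.2% and 33.9% of 32851 promoters did. The E2F motifs TTTCCCGC or TTTGGCGC were found in 4 of 8 origin licensing members with a promoter (Cdc6, Mcm5, Mcm6 and Mcm7). They were in 0 of those 19 and in 1.3% of all promoters. Members were counted as genes, by a match in any of their promoters, and the 32851 promoters singly. The shares of members and of all promoters are therefore not in the same unit. A match is a run of letters and not a bound site.

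Omentum mesothelial cells had higher levels of many mitosis genes than those of mesentery or epididymal fat. Members of origin licensing and DNA synthesis rose over mesentery only (Cdc45, Cdc6, Mcm5 and Rrm2). Against mesentery mesothelial cells, 15 of the 41 members rose and 0 fell, where 2.36% of the 25705 genes tested rose and 2.79% fell. A gene counts as risen or fallen here where edgeR's quasi-likelihood test gave a Benjamini-Hochberg adjusted p under 0.05 over all genes (edgeR adjusted p) and the log2 fold change was at least 1 in size. The median log2 fold change of the members was 1.16, against -0.09 for all genes. In bulk libraries, a smaller share of cycling cells and less of the RNA per cell cannot be told apart.

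Ccnb1, which encodes cyclin B1, the partner of Cdk1 in mitosis (ENSMUSG00000041431, GRCm38 chr13:100778650-100786570), had 26.4, 36.2 and 38.0 CPM in omentum mesothelial libraries, against 8.32, 8.35 and 6.54 CPM in mesentery mesothelial libraries. In these TMM-scaled values each omentum library lay above all 31 others of the series, of which the highest was a bone library with 25.3 CPM. The log2 fold change was 2.11 ± 0.47 (SE; edgeR adjusted p = 0.0043). Top2a, the topoisomerase that untangles sister chromosomes, had 29.0, 44.6 and 43.7 CPM in omentum mesothelial libraries, against 11.4, 8.54 and 8.41 CPM in those of mesentery (2.04 ± 0.49, edgeR adjusted p = 0.0091). Rrm2, the inducible subunit of ribonucleotide reductase that supplies DNA building blocks, had 20.3, 35.2 and 26.4 CPM in omentum, against 7.96, 9.996 and 10.3 CPM in mesentery mesothelial libraries (1.54 ± 0.31, edgeR adjusted p = 0.0012). For these genes every omentum library was higher than every mesentery one.

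Ube2c, the enzyme that passes ubiquitin to cyclins at the anaphase-promoting complex, gave the smallest p of the members, with 12.1, 11.8 and 9.77 CPM in omentum mesothelial libraries, against 2.57, 3.26 and 1.25 CPM in those of mesentery (2.25 ± 0.43, edgeR adjusted p = 6.4e-04). Ccna2, cyclin A2, had 5.32, 4.38 and 6.82 CPM in omentum mesothelial cells, against 1.88, 1.26 and 0.782 CPM in mesentery ones (2.04 ± 0.44, edgeR adjusted p = 0.0027). Kif11, the motor that pushes spindle poles apart, had 8.85, 14.3 and 11.4 CPM in omentum mesothelial libraries, against 3.35, 3.10 and 3.66 CPM in those of mesentery (1.77 ± 0.39, edgeR adjusted p = 0.0037). None of these ranges overlapped.

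Cdc45, a part of the replicative helicase, had 7.51, 10.5 and 10.5 CPM in omentum mesothelial libraries, against 5.37, 3.95 and 2.94 CPM in mesentery ones (1.21 ± 0.27, edgeR adjusted p = 0.0037). Tpx2, which activates Aurora A on the spindle, had 9.48, 18.9 and 19.9 CPM in omentum, against 5.37, 4.40 and 4.07 CPM in mesentery mesothelial libraries (1.80 ± 0.44, edgeR adjusted p = 0.0082). Ccnd1, cyclin D1, had 9.83, 12.2 and 16.0 CPM in omentum mesothelial libraries, against 3.57, 5.06 and 4.50 CPM in those of mesentery (1.54 ± 0.33, edgeR adjusted p = 0.0022). The groups stood apart for these genes too.

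The other members that rose in omentum over mesentery mesothelial cells were Cdc20, the activator of the anaphase-promoting complex (log2 fold change 2.003), the licensing factor Cdc6 (1.74), the centromeric histone Cenpa (1.72), Aurka (1.37), the helicase subunit Mcm5 (1.19) and the inhibitor Cdkn1a (1.16). Mcm5 had 22.3, 26.5 and 27.1 CPM in omentum mesothelial libraries, against 11.5, 10.3 and 11.4 CPM in mesentery ones (edgeR adjusted p = 0.037). Cdkn1a had 82.6, 105 and 107 CPM in omentum mesothelial libraries, against 44.5, 53.8 and 33.4 CPM in those of mesentery (edgeR adjusted p = 0.013). These 6 calls each ended when 1 library was left out: for Mcm5 any of the 6 libraries, for Cenpa any but mesentery 2, for Aurka mesentery 2 or 3 or omentum 2 or 3, for Cdc6 mesentery 1 or 3 or omentum 2, for Cdc20 mesentery 1 or 3 and for Cdkn1a mesentery 3 or omentum 2. Mki67 was not called, with 7.26, 8.93 and 20.1 CPM in omentum mesothelial libraries, against 7.18, 5.19 and 3.88 CPM in those of mesentery (log2 fold change 1.16, edgeR adjusted p = 0.20), omentum library 3 lying far above the others.

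**Figure D2:**
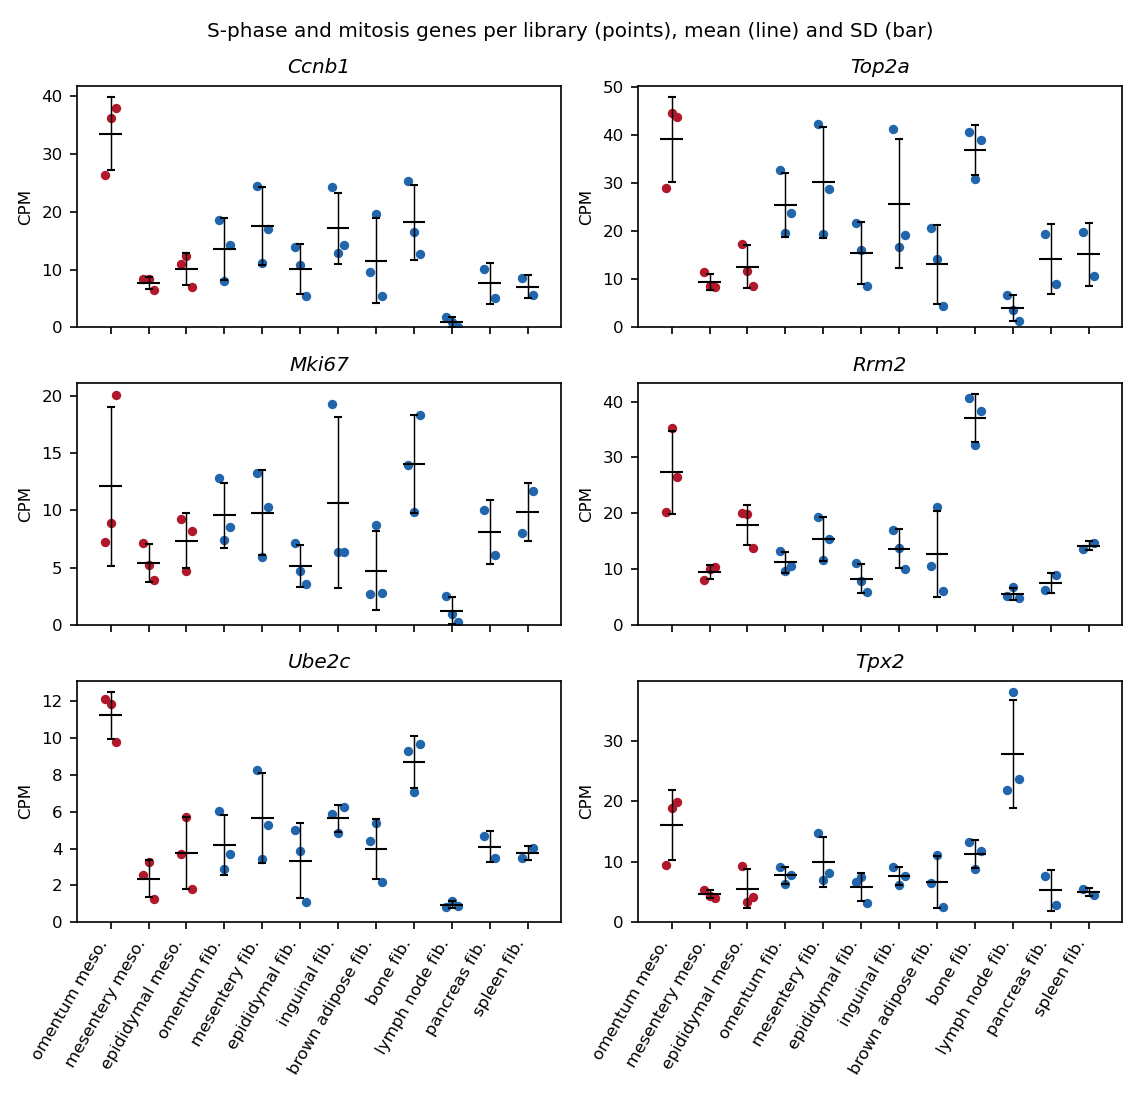
CPM of Ccnb1, Top2a, Mki67, Rrm2, Ube2c and Tpx2 in each of the 34 libraries (points) by group, with group means as horizontal lines and standard deviations as error bars. For Ccnb1 the 3 omentum mesothelial libraries lie between 26.4 and 38.0 CPM, and the lymph node libraries do not pass 1.81 CPM, whereas Tpx2 is highest in the lymph node libraries, at 21.8 to 38.1 CPM.

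Against epididymal mesothelial cells, those of omentum had 11 members higher and 1 lower, where 3.55% of all genes rose and 6.83% fell. The median log2 fold change was 0.81 for the members and -0.24 for all genes. The omentum libraries are those of the comparison with mesentery, so both comparisons rest on the same samples on one side. Ccnb1 had 10.9, 12.4 and 6.93 CPM in epididymal mesothelial libraries (log2 fold change of omentum over epididymal 1.74 ± 0.46, edgeR adjusted p = 0.012), Top2a had 17.4, 11.8 and 8.55 CPM there (1.64 ± 0.48, edgeR adjusted p = 0.024), and both stayed below every omentum library. Ube2c rose by 1.61, Kif20a, a motor of the dividing cell's midzone, by 1.55, Tpx2 by 1.54, Ccna2 by 1.53, Kif11 by 1.31, Aurka by 1.28 and the spindle checkpoint kinase Bub1 by 1.89 on the log2 scale. Leaving out epididymal library 3 ended the calls of Ube2c, Ccnb1, Ccna2, Top2a, Tpx2, Aurka, Kif20a and Bub1 (edgeR adjusted p = 0.065 to 0.12). Leaving out epididymal library 2 ended those of Top2a, Tpx2, Aurka, Kif11, Kif20a and Bub1, omentum library 2 those of Top2a, Tpx2, Aurka, Kif11 and Bub1, omentum library 3 those of Top2a, Tpx2, Aurka, Kif20a, Ccna2 and Bub1, and epididymal library 1 that of Bub1.

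G1 members were called in the same comparison. Ccnd2, cyclin D2, had 32.5, 61.7 and 57.8 CPM in omentum mesothelial libraries, against 17.7, 24.2 and 17.0 CPM in epididymal ones (1.37 ± 0.20, edgeR adjusted p = 1.5e-05). Cdkn1a averaged 98.0 CPM in omentum and 36.5 CPM in epididymal mesothelial cells (1.43 ± 0.30, edgeR adjusted p = 0.0015). E2f1, a factor that switches on S phase genes, fell, with 1.73, 1.21 and 1.29 CPM in omentum, against 3.53, 4.21 and 2.05 CPM in epididymal mesothelial libraries (-1.21 ± 0.25, edgeR adjusted p = 0.0013); without epididymal library 2 its log2 fold change was -0.99.

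Between mesentery and epididymal mesothelial cells, 1 member rose and 2 fell, where 1.98% of all genes rose and 2.21% fell. Ccnd2 rose, with 67.5, 83.7 and 119 CPM in mesentery libraries (2.20 ± 0.21, edgeR adjusted p = 7.6e-09 over epididymal). Ccnd1 fell, with 12.6, 19.5 and 6.55 CPM in epididymal mesothelial libraries beside the mesentery values above (-1.55 ± 0.33, edgeR adjusted p = 0.0024), and E2f1 fell by 1.47 on the log2 scale. Of the 24 S phase, G2 and mitosis members 0 were called between these depots by edgeR and 1 had an unadjusted p under 0.05. The share of all genes at that unadjusted p was not counted. Leaving out the 8 libraries rich in acinar genes left 1 mesentery mesothelial library, too few to judge calls. Log2 fold changes were then -1.54 for E2f1, -1.49 for Ccnd1 and 2.62 for Ccnd2. Mesothelial cells of mesentery thus had the highest Ccnd2 and the lowest Ccnd1 of the 3 depots, though for Ccnd2 omentum was short of the fold required against mesentery (-0.83, edgeR adjusted p = 0.0076).

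Genes around the members were counted in the same comparisons. Of all genes 2.36% rose and 2.79% fell over mesentery, and 3.55% rose and 6.83% fell over epididymal mesothelial cells. No list was tested against these shares. Of 58 other mitosis genes, 24 rose and 0 fell in omentum over mesentery mesothelial cells, led by Nusap1 (1.73 ± 0.33), Tacc3 (1.52), Cdca8 (1.80) and Spc25 (1.81), which build the spindle and its chromosome attachments. Over epididymal mesothelial cells 20 rose and 0 fell, led by Troap (2.70), Ccnf (1.80), Tacc3 (1.30) and Nek2 (2.68). Of 38 other replication genes 2 rose and 0 fell in each, among them Slbp, the histone mRNA binding protein (1.22 over mesentery and 1.39 over epididymal). Of 25 G1 kinases, pocket proteins and E2F or DREAM genes 2 rose in each, among them Myc, which averaged 410 CPM in omentum, 89.7 CPM in mesentery and 95.3 CPM in epididymal mesothelial cells. Of 20 p53 target genes 3 rose in each, among them Mdm2, the ubiquitin ligase of p53, at 92.3 CPM in omentum, 37.5 CPM in mesentery and 31.7 CPM in epididymal mesothelial cells.

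**Figure D3:**
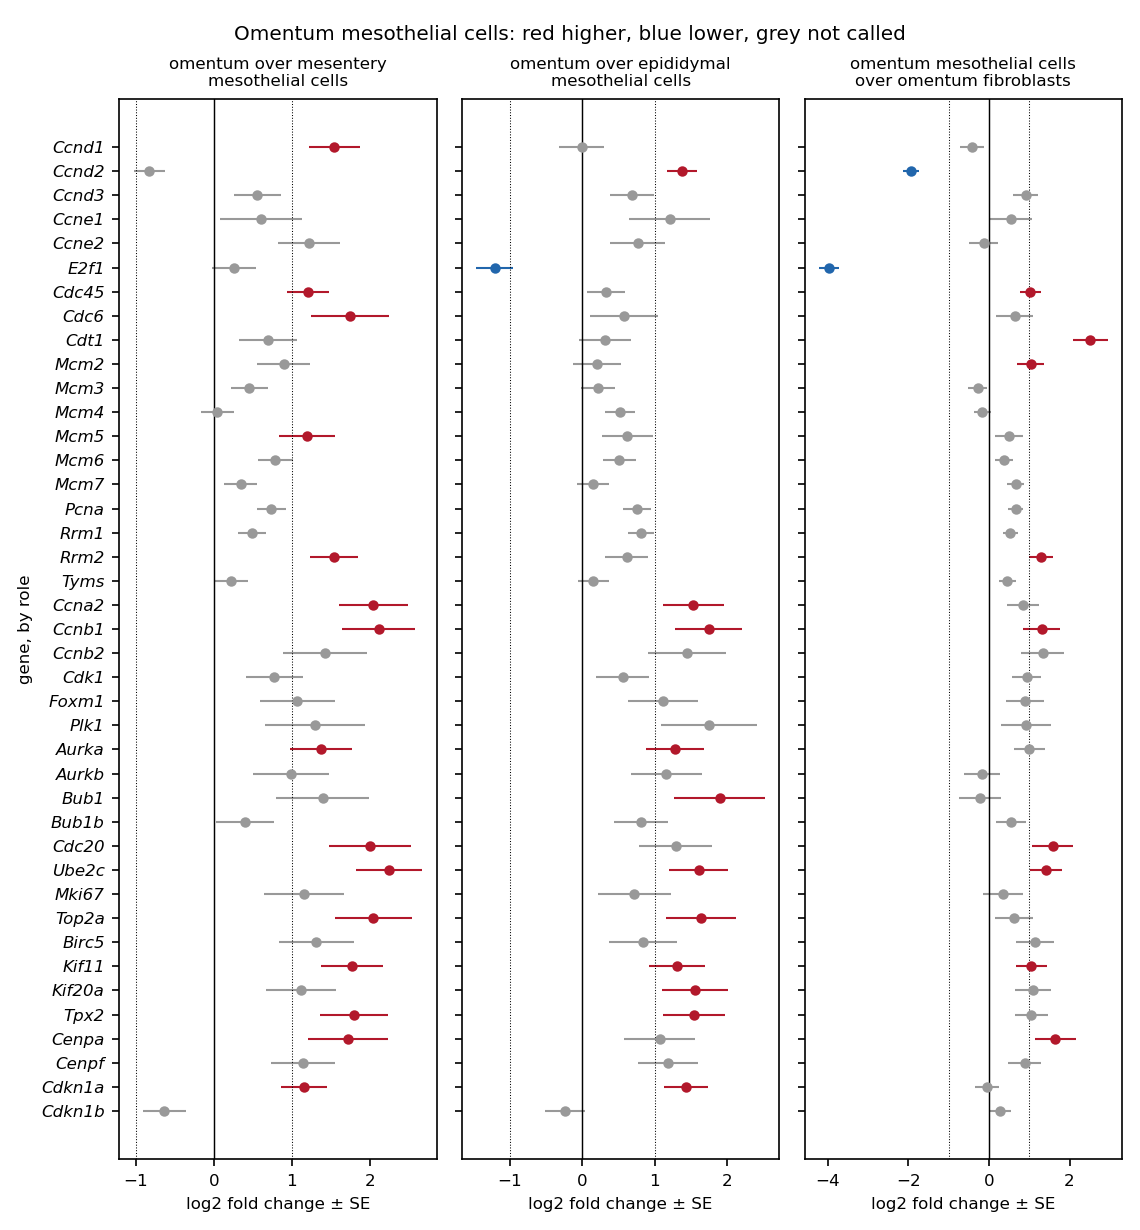
Log2 fold change with its standard error for each tested member in omentum mesothelial cells over mesentery mesothelial cells, over epididymal mesothelial cells and over omentum fibroblasts. Red marks members that rose, blue those that fell and grey those not called: 15 and 0, 11 and 1, and 9 and 2.

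Markers of other cells were summed for the same libraries. Acinar markers summed to 52.9, 56.7 and 1826 CPM in omentum mesothelial libraries (lowest to highest) and to 188, 1415 and 5748 CPM in mesentery ones. Leaving out the 8 libraries over 1000 CPM left 1 mesentery mesothelial library, too few to judge calls over mesentery. All 15 log2 fold changes over mesentery kept their sign at 1.23 to 3.11, Ccnb1 being at 2.51 and Rrm2 at 1.58. Over epididymal mesothelial cells, 11 of 12 calls held without them. Leukocyte markers summed to 637 to 792 CPM in omentum, 844 to 1863 CPM in mesentery and 107 to 260 CPM in epididymal mesothelial libraries, and Ptprc itself reached 1.59, 0.880 and 2.51 CPM. Epithelial markers summed to 9.41 to 14.0 CPM in omentum, 36.8 to 59.4 CPM in mesentery and 54.2 to 96.2 CPM in epididymal mesothelial libraries, and mural markers to 336 to 344 CPM, 203 to 225 CPM and 568 to 662 CPM in the same order, without overlap between omentum and either other depot. Immediate early genes summed to 17280 to 20480 CPM in omentum, 17070 to 20380 CPM in mesentery and 9683 to 21740 CPM in epididymal mesothelial libraries, where library 2 was the low one. The part of these other cells and genes in the results was not tested, beyond the fits without the libraries rich in acinar genes.

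The largest differences between mesothelial cells and fibroblasts were in E2f1 and Ccnd2, both of G1. Averaged over the 3 depots, 1 member rose and 3 fell in mesothelial cells, where 12.3% of all genes rose and 9.08% fell, and the members' median of 0.10 lay by that of all genes, 0.11. With no minimum fold 14 members passed, where 37.1% of all genes did. E2f1 was 1.04 CPM at the lowest, 1.33 at the median and 4.21 at the highest of 9 mesothelial libraries, against 20.3, 23.6 and 26.0 CPM in 9 fibroblast libraries of the same depots (log2 fold change -3.73 ± 0.14, edgeR adjusted p = 8.4e-21). Ccnd2 was 17.0, 57.8 and 119 CPM in mesothelial libraries, against 159, 207 and 211 CPM in fibroblast ones (-2.09 ± 0.12, edgeR adjusted p = 3.6e-16). Neither gene's ranges overlapped.

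Cdt1, the factor that loads MCM rings on origins, rose, at 1.56, 3.42 and 4.30 CPM in mesothelial libraries, against 0.431, 0.742 and 1.55 CPM in fibroblast libraries (lowest, median and highest; 1.90 ± 0.24, edgeR adjusted p = 8.1e-08). Bub1 fell by 1.12 ± 0.34 on the log2 scale (edgeR adjusted p = 0.0094), with overlapping libraries. It was no longer called without epididymal fibroblast library 1 (-0.95, edgeR adjusted p = 0.040). Without the 8 libraries rich in acinar genes, which left too few in some groups to judge calls, its log2 fold change was -0.95. The third D-type cyclin, Ccnd3, missed the fold required at a log2 fold change of 0.72 (edgeR adjusted p = 0.0012), with 53.2 to 146 CPM in mesothelial libraries and 33.7 to 80.2 CPM in fibroblast libraries.

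Of 25 G1 genes, 5 rose and 1 fell in mesothelial cells, counts near the shares of all genes given above. Cdk6, a kinase partner of D-type cyclins, averaged 56.5 CPM in mesothelial cells and 14.3 CPM in fibroblasts (2.32 ± 0.18, edgeR adjusted p = 2.3e-12), the E2F partner Tfdp2 rose by 1.74, the CDK phosphatase Cdc25a by 1.32, and E2f3 fell by 1.46 on the log2 scale. Cdkn2c, p18, an inhibitor of Cdk4 and Cdk6, averaged 36.1 CPM in mesothelial cells and 9.39 CPM in fibroblasts (1.98 ± 0.15, edgeR adjusted p = 2.8e-13). Of 38 other replication genes 5 rose, again near the share of all genes, and 0 fell, led by the Cdt1 inhibitor Gmnn (1.88), and of the other mitosis genes 1 rose and 2 fell.

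**Figure D4:**
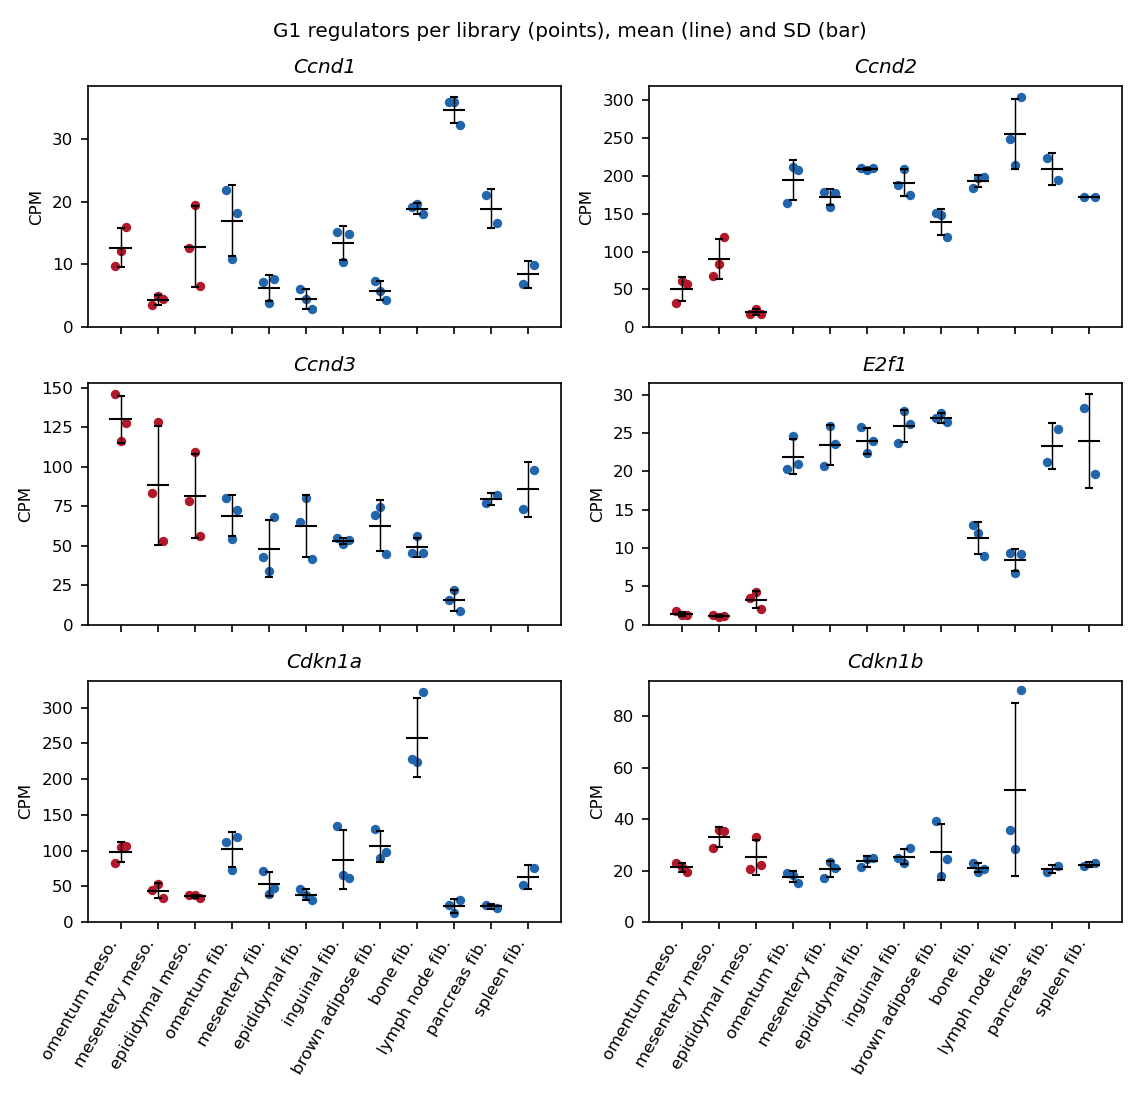
CPM of Ccnd1, Ccnd2, Ccnd3, E2f1, Cdkn1a and Cdkn1b in each of the 34 libraries (points) by group, with group means as horizontal lines and standard deviations as error bars. E2f1 stays at or under 4.21 CPM in every mesothelial library and at or above 6.75 CPM in every fibroblast library, and Cdkn1a is highest in the bone libraries, at 225 to 322 CPM.

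Depot by depot, the difference between the cell types was not the same. In omentum, 9 members rose and 2 fell in mesothelial cells over fibroblasts, where 8.10% of all genes rose and 8.79% fell. Rrm2 had 13.3, 9.68 and 10.6 CPM in omentum fibroblast libraries, all below the mesothelial ones (1.29 ± 0.30, edgeR adjusted p = 0.0016), and Cdt1 rose by 2.52, Cenpa by 1.64, Cdc20 by 1.58, Ube2c by 1.42, Ccnb1 by 1.31, Kif11 by 1.05, Mcm2 by 1.04 and Cdc45 by 1.03 on the log2 scale. E2f1 (-3.97) and Ccnd2 (-1.94) fell. Without omentum fibroblast library 2, the calls of Cenpa, Cdc20, Ube2c, Ccnb1, Kif11, Mcm2 and Cdc45 ended. Without fibroblast library 3 those of Cdc20, Ccnb1, Kif11, Mcm2 and Cdc45 ended, without mesothelial library 3 those of Ccnb1, Kif11, Mcm2 and Cdc45, without mesothelial library 2 those of Ccnb1, Kif11 and Cdc45, and without fibroblast library 1 that of Kif11. Of these libraries, 2 of fibroblasts and 1 of mesothelial cells were rich in acinar genes, and leaving them out left too few fibroblast libraries to judge calls. Without them the 9 rises had log2 fold changes of 1.22 to 2.65, with Ccnb1 at 2.23. E2f1 was then at -4.28 and Ccnd2 at -1.82. Mesothelial markers summed to 692 to 1028 CPM in omentum fibroblast libraries, against 138 to 295 CPM in those of mesentery and epididymal fat. The part of acinar and mesothelial RNA in these calls was not tested.

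In mesentery more members fell than rose: 1 member rose and 6 fell in mesothelial cells over fibroblasts, where 10.8% of all genes rose and 7.53% fell, and with no minimum fold 11 members passed, where 23.1% of all genes did. Top2a fell, with the mesentery mesothelial values above against 42.4, 19.3 and 28.8 CPM in mesentery fibroblast libraries (-1.67 ± 0.49, edgeR adjusted p = 0.012), as did Bub1 (-1.98), Aurkb, the kinase of the chromosomal passenger complex (-1.60), Ccne2, cyclin E2 (-1.39), Ube2c (-1.27) and E2f1 (-4.32), and Cdt1 rose by 1.34. Without mesentery fibroblast library 1, only E2f1 and Bub1 of these stayed called. Leaving out the 8 libraries rich in acinar genes left 1 mesentery mesothelial library, too few to judge calls. Log2 fold changes were then -4.495 for E2f1, -2.25 for Bub1, -1.855 for Aurkb and -1.79 for Ube2c. They were -1.52 for Top2a, -1.20 for Ccne2 and 0.55 for Cdt1. The calls of Ube2c and Aurkb also ended without mesentery mesothelial library 3, and that of Cdt1 without mesothelial library 1 or 2 or fibroblast library 2. Leukocyte markers summed to 844 to 1863 CPM in mesentery mesothelial libraries, against 18.2 to 49.1 CPM in mesentery fibroblast libraries, and endothelial markers to 99.0 to 121 CPM, against 277 to 437 CPM, and their part in these calls was not tested. In epididymal fat 5 members rose and 2 fell, where 16.6% of all genes rose and 8.16% fell. Ccnd1 rose there, with 6.05, 4.52 and 2.998 CPM in epididymal fibroblast libraries (1.51 ± 0.33, edgeR adjusted p = 5.1e-04), as did Cdt1 (1.85), Mcm2 (1.19), Cdk1 (1.17) and Rrm2 (1.13), and Ccnd2 (-3.41) and E2f1 (-2.89) fell. Without epididymal mesothelial library 1 the calls of Mcm2, Cdk1 and Rrm2 ended, as they did without epididymal fibroblast library 3, and that of Cdk1 ended without mesothelial library 2.

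A test of that difference itself called 9 of 41 members, where 10.9% of all genes were called: Ccnd2, Rrm2, Cdc45, Ccnd1, E2f1, Ube2c, Ccnb1, Cdc20 and Tpx2. For Ccnb1 the log2 fold change of mesothelial cells over fibroblasts was 1.31 in omentum, -1.18 in mesentery and 0.00 in epididymal fat (edgeR adjusted p = 0.029). For Rrm2 it was 1.29, -0.72 and 1.13 in the same order (edgeR adjusted p = 0.0020). Leaving out 1 library ended the call of Ccnb1 in 7 fits, of Cdc20 in 10 and of Tpx2 in 11, and of the other 6 in none. Without the libraries rich in acinar genes, too few were left in some groups to judge calls. The depot effects of the 9 members then spanned 1.59 to 3.72 log2 units.

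Among the fibroblasts of 9 tissues, 26 of 41 members varied, where 44.0% of all genes did, each with an edgeR adjusted p under 0.05 and at least 1 log2 unit between its highest and lowest tissue. By role, these were 2 of 3 D-type cyclins, 3 of 3 G1/S genes, 4 of 9 licensing genes, 1 of 4 genes of DNA synthesis, 4 of 8 mitotic cyclins and kinases, 3 of 4 checkpoint genes, 7 of 8 spindle and chromosome genes and 2 of the 2 inhibitors tested. Cdkn1a gave the smallest p (range 3.55 log2 units, edgeR adjusted p = 8.1e-11), before Ccnd1 (2.94, 5.4e-09) and Rrm2 (2.74, 1.4e-07). The widest range was that of Ccnb1, 4.22 log2 units. Each tissue was then set against the mean of the other 8, so these comparisons share their libraries.

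Bone fibroblasts had 13 members higher and 0 lower, where 12.8% of all genes rose and 6.65% fell, with a members' median of 0.67 against 0.03. Cdkn1a, the p53-induced inhibitor p21, had 228, 225 and 322 CPM in bone libraries, against 12.1, 56.6 and 135 CPM at the lowest, median and highest of the 22 other fibroblast libraries (2.29 ± 0.18, edgeR adjusted p = 7.1e-12). Rrm2 had 40.7, 32.3 and 38.4 CPM in bone, against 4.84, 10.6 and 21.1 CPM elsewhere (1.82 ± 0.20, edgeR adjusted p = 3.1e-09). Every bone library was above every other fibroblast library for both genes, so an inhibitor of the cycle and a gene of DNA synthesis were highest in the same tissue.

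Ccne1, cyclin E1, had 2.42, 2.45 and 3.63 CPM in bone libraries, against 0.0356, 0.557 and 1.71 CPM at the lowest, median and highest of the others (2.26 ± 0.34, edgeR adjusted p = 1.7e-06). Cdt1 had 4.06, 3.20 and 3.44 CPM in bone, against 0.431, 0.951 and 2.97 CPM elsewhere (1.72 ± 0.28, edgeR adjusted p = 1.0e-05), and Ccne2 rose by 1.17. Their bone libraries did not overlap the others. The rest did overlap: Top2a, with 40.6, 30.8 and 38.9 CPM in bone and 1.42, 19.3 and 42.4 CPM elsewhere, rose by 1.24 (edgeR adjusted p = 0.0036). Birc5, survivin, rose by 1.501, Ube2c by 1.28, Cenpa by 1.19, Mki67 by 1.16, Ccnb2 by 1.13, Ccnb1 by 1.11 and Ccna2 by 1.09 on the log2 scale. Mki67 had 13.9, 9.85 and 18.4 CPM in bone libraries, and Ccnb1 had 25.3, 16.4 and 12.7 CPM there. Without bone library 3, Mki67 (0.92, edgeR adjusted p = 0.14), Ccna2 (0.93, 0.066) and Ccnb2 were no longer called. Without bone library 1, Ccnb1 and Ccnb2 were not called, nor was Cenpa without bone library 2, nor Ccna2 and Ccnb1 without omentum fibroblast library 2.

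Outside the members, 15 of the 58 other mitosis genes rose and 0 fell in bone, led by Cks2 (1.56 ± 0.21), and 4 of 25 G1 genes rose, led by Cdc25a (1.69) and by Skp2 (1.26), which targets Cdkn1b for destruction. Of 20 p53 targets 5 rose and 0 fell, among them Mdm2 at 67.4 CPM in bone fibroblasts and 28.7 CPM in the others (1.31 ± 0.15, edgeR adjusted p = 1.7e-08) and Sesn2 (2.11). Of 38 other replication genes 3 rose and 1 fell, Mcm10 at 2.15 and Cdc7, a kinase that fires origins, at -1.82. Of all genes 12.8% rose and 6.65% fell in bone, and the G1 and replication counts lie near those shares. Of 10 erythroid markers, all detected in bone, 7 rose, and they summed to 20.5 to 134 CPM in bone, 83.0 to 429 CPM in spleen and at most 71.2 CPM in other fibroblasts. Of 16 leukocyte markers 9 rose and 1 fell, with Ptprc at 2.53 to 4.03 CPM in bone libraries and a sum of 64.4 to 118 CPM, against 547 to 820 CPM in omentum, 405 to 898 CPM in lymph node and 9.95 to 463 CPM in the remaining fibroblast libraries. Of 8 blood progenitor markers, 7 of them tested, 5 rose and 1 fell. Kit was at 2.68 to 4.82 CPM and Mpo, a granule enzyme of myeloid cells, at 17.05 to 87.0 CPM in bone (log2 fold change 6.48), while Cd34, which fibroblasts also express, fell (-1.54), so the list summed to 368 to 828 CPM in bone, 329 to 430 CPM in lymph node and 1422 to 3207 CPM in other fibroblast libraries. Tnnc2, a gene of fast muscle whose exons overlap those of Ube2c on the opposite strand, was at 43.2 to 526 CPM in bone and at most 2.62 CPM in all other groups. Their part in these results was not tested.

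**Figure D5:**
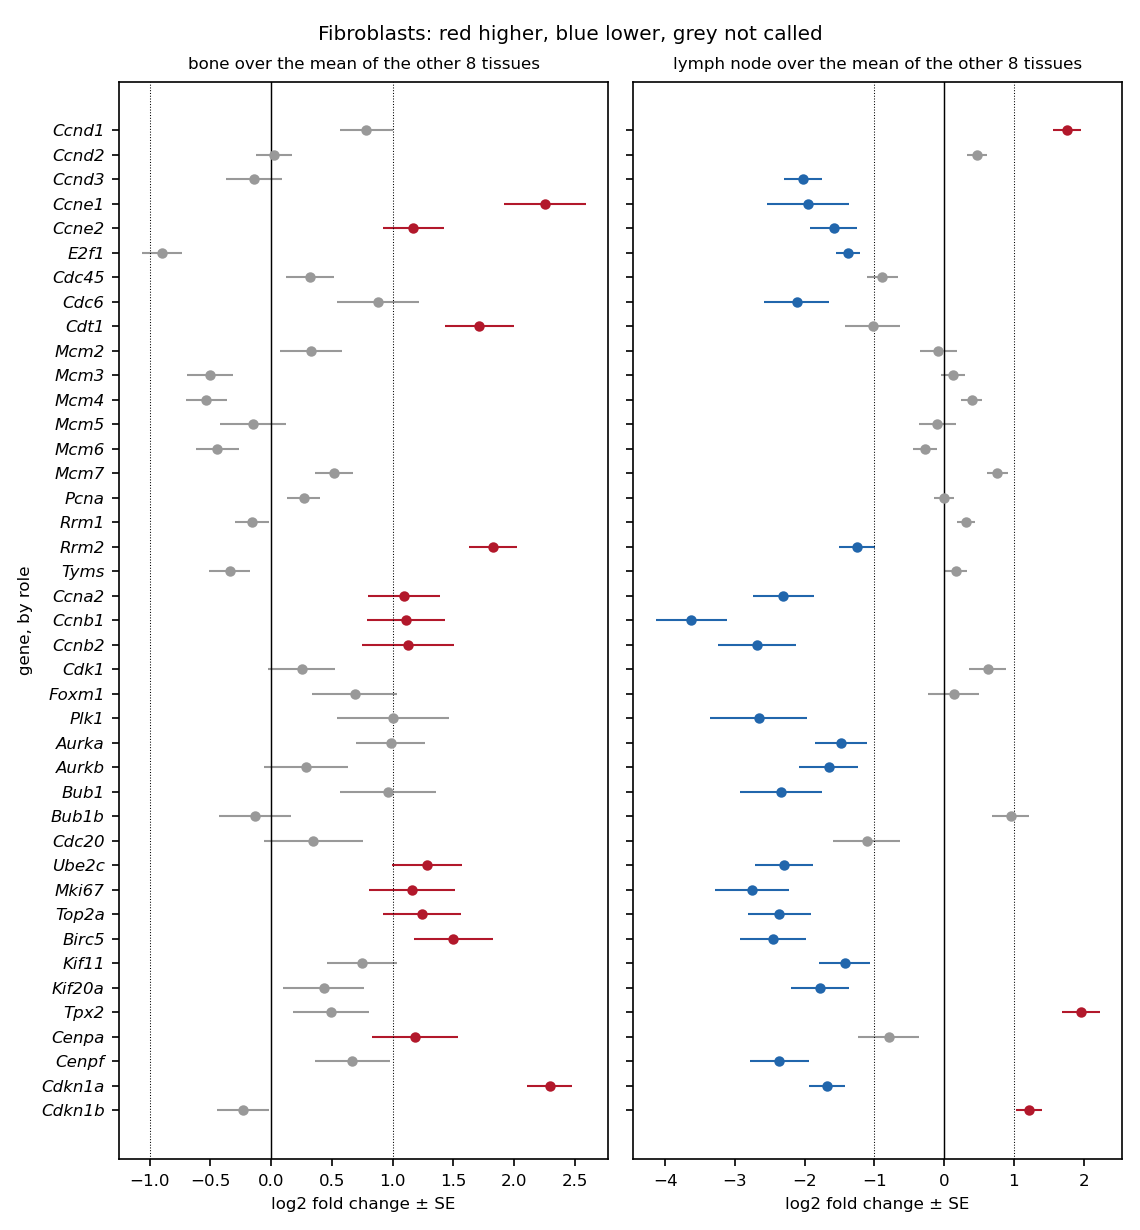
Log2 fold change with its standard error for each tested member in bone fibroblasts and in lymph node fibroblasts, each over the mean of the other 8 tissues. Red marks members that rose, blue those that fell and grey those not called: 13 and 0 in bone, 3 and 21 in lymph node.

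Lymph node fibroblasts stood at the other end, with 3 members higher and 21 lower, where 9.32% of all genes rose and 7.13% fell. The members' median was -1.25, against -0.04 for all genes. Ccnb1 had 1.81, 0.960 and 0.0711 CPM in lymph node libraries, against 5.08, 12.8 and 25.3 CPM at the lowest, median and highest of 22 other fibroblast libraries (-3.63 ± 0.51, edgeR adjusted p = 1.5e-06). Mki67 had 2.55, 0.904 and 0.249 CPM in lymph node, against 2.67, 8.31 and 19.3 CPM elsewhere (-2.76 ± 0.53, edgeR adjusted p = 1.4e-04). Both genes were lower in each lymph node library than in any other fibroblast library. Top2a, with 6.79, 3.61 and 1.42 CPM in lymph node, overlapped the others only through a brown adipose library with 4.35 CPM (-2.37 ± 0.45, edgeR adjusted p = 1.5e-04).

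Most falls were among cyclins and spindle genes. Of the 8 mitotic cyclins and kinases 6 fell, of the 4 checkpoint genes 2, of the 8 spindle and chromosome genes 6 and of the 3 G1/S genes 3, while 1 of 9 licensing genes, Cdc6 (-2.11), and 1 of 4 DNA synthesis genes, Rrm2 (-1.25), fell. Mcm5 was measured at 16.1, 14.3 and 13.0 CPM in lymph node, against a median of 15.6 CPM elsewhere (log2 fold change -0.10, edgeR adjusted p = 0.88). The other falls, as log2 fold changes, were those of Ccnb2 (-2.68), the mitotic kinase Plk1 (-2.66), Birc5 (-2.46), the kinetochore gene Cenpf (-2.36), Bub1 (-2.34), Ccna2 (-2.31), Ube2c (-2.30), Ccne1 (-1.96), Kif20a (-1.78), Aurkb (-1.66), Ccne2 (-1.58), Aurka (-1.48) and Kif11 (-1.43). Without lymph node library 3, Ccne1 (-1.53, edgeR adjusted p = 0.098) and Aurkb (-1.21, 0.051) were no longer called.

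Tpx2 went the other way. It had 21.8, 38.1 and 23.7 CPM in lymph node libraries, against 2.48, 7.55 and 14.7 CPM at the lowest, median and highest of the other fibroblast libraries (1.96 ± 0.27, edgeR adjusted p = 6.6e-07). Its partner Aurka fell in the same libraries, with 1.94, 1.04 and 0.747 CPM. Cdk1, at 16.9, 18.1 and 16.5 CPM, and Bub1b, at 15.8, 13.5 and 14.3 CPM in lymph node libraries, were not called. Foxm1, Cdc20 and Cenpa were not called there either.

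The G1 members changed individually in lymph node fibroblasts. Ccnd1 had 35.9, 35.8 and 32.2 CPM in lymph node libraries, against 2.998, 10.2 and 21.9 CPM at the lowest, median and highest of the others (1.77 ± 0.20, edgeR adjusted p = 1.2e-08). Ccnd3 had 15.5, 21.8 and 8.71 CPM in lymph node, against 33.7, 60.6 and 97.9 CPM elsewhere (-2.02 ± 0.27, edgeR adjusted p = 5.6e-07). Ccnd2, at 248, 214 and 304 CPM in lymph node libraries, did not reach the fold required (0.47, edgeR adjusted p = 0.011). For Ccnd1 and Ccnd3 the lymph node libraries stood apart from all other fibroblast libraries, in opposite directions.

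E2f1 had 9.41, 6.75 and 9.21 CPM in lymph node fibroblasts, against 9.01, 23.8 and 28.2 CPM elsewhere (-1.38 ± 0.17, edgeR adjusted p = 1.1e-07), the lowest of the others being a bone library. Cdkn1a had 23.9, 12.1 and 31.3 CPM in lymph node, against 19.8, 72.3 and 322 CPM elsewhere (-1.67 ± 0.26, edgeR adjusted p = 4.6e-06), and overlapped the pancreas and epididymal libraries. Cdkn1b, p27, had 35.8, 28.6 and 90.0 CPM in lymph node, against 15.2, 21.7 and 39.1 CPM elsewhere (1.22 ± 0.19, edgeR adjusted p = 4.4e-06). That rise was carried by library 3, without which the log2 fold change was 0.54 and short of the fold required.

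Of the 58 other mitosis genes 40 fell and 0 rose in lymph node fibroblasts, led by Espl1, separase (-4.12 ± 0.55), Hmmr (-1.69), Ckap2l (-2.72) and Pbk (-3.35). Of 38 other replication genes 2 rose and 2 fell, with DNA ligase Lig1 at 1.27. These counts lie near the shares of all genes, of which 9.32% rose and 7.13% fell. Cdk6 averaged 49.0 CPM in lymph node fibroblasts and 12.4 CPM in the others (2.21 ± 0.19, edgeR adjusted p = 5.4e-11), and Cdkn2c 21.8 and 7.76 CPM (1.55 ± 0.17, edgeR adjusted p = 3.7e-09). Of 20 p53 targets 4 rose and 4 fell. Of 8 mural cell markers, all detected, 7 rose and 1 fell, and they summed to 1552 to 1803 CPM in lymph node, against at most 284 CPM in other fibroblast libraries, and 6 of 16 leukocyte markers rose, with a sum of 405 to 898 CPM and Ptprc at 0.427 to 4.43 CPM. Their part in these results was not tested.

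The other tissues stood apart in few members. Omentum fibroblasts had 0 called, where 7.64% of all genes rose and 2.38% fell, with 3 at an edgeR adjusted p under 0.05 (16.9% of all genes) and 10 at an unadjusted p under 0.05. Spleen fibroblasts had 0, where 3.88% were, with 2 at an unadjusted p under 0.05. DESeq2 called 0 in both. The share of all genes at an unadjusted p under 0.05 was not counted, so the 10 and 2 members have no baseline. Mesentery fibroblasts had Ccnb1 higher (1.06, edgeR adjusted p = 0.045) and Ccnd1 lower (-1.002, 0.013), where 2.19% of all genes rose and 1.31% fell. Inguinal fibroblasts had Ccna2 (1.14, edgeR adjusted p = 0.0070) and Ccnb1 (1.02, 0.038) higher and 0 lower, where 3.35% rose and 2.96% fell, and brown adipose fibroblasts had Ccnd1 (-1.12, edgeR adjusted p = 0.0032) and the checkpoint gene Bub1b (-1.0005, 0.037) lower and 0 higher, where 3.66% rose and 2.75% fell. Single libraries were high in some of these tissues: inguinal library 1 had 19.3 CPM of Mki67 where the others had 6.38 and 6.32, and without it Ccna2 was not called, and brown adipose library 2 had 24.2 CPM of Birc5 where the others had 7.59 and 3.99. The calls of Ccnb1 in mesentery and inguinal, of Ccnd1 in mesentery and of Bub1b in brown adipose tissue each ended in several alternatives. That of Ccnd1 in brown adipose tissue ended without brown adipose library 3 (-0.94, edgeR adjusted p = 0.051) and without the libraries rich in acinar genes (-0.93, 0.024).

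Ccnd1 was lowest in epididymal fibroblasts, where it was the only member called (-1.54 ± 0.27, edgeR adjusted p = 1.6e-04), where 4.43% of all genes were. Cdkn1a was the only member called in pancreas fibroblasts, where 8.65% of all genes rose and 2.31% fell. It had 24.3 and 19.8 CPM in pancreas libraries, against a mean of 91.3 CPM over the other tissues (-1.70 ± 0.31, edgeR adjusted p = 2.0e-04). In the same libraries 15 of 18 immediate early genes and 6 of 20 p53 targets fell, with Btg2 at -3.50, and acinar markers summed to 32960 and 113400 CPM; their part in the Cdkn1a result was not tested.

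Counting could blur some members. The labels do not say whether strand was used in counting, and exons on the opposite strand overlap 29.3% of Kif20a (Cdc23), 23.4% of Ccnd1 (LTO1), 22.8% of Ube2c (Tnnc2), 17.4% of Ccne2 (Ints8) and 12.5% of Ccna2 (Exosc9). Cdc23 averaged 91.0 to 133 CPM over the 12 groups and LTO1 22.0 to 48.2 CPM, more than their partners in every group. Exosc9 averaged 26.1 to 46.0 CPM and Ints8 7.495 to 11.85 CPM. Tnnc2 was at or near 0 outside bone and brown adipose tissue. LTO1 averaged 41.4 CPM in omentum, 48.2 CPM in mesentery and 37.7 CPM in epididymal mesothelial cells, and among fibroblasts 42.7 CPM in lymph node, where Ccnd1 rose, against 22.0 to 35.1 CPM in the other tissues. Its part in the Ccnd1 results was not tested. Annotated pseudogenes resemble Ccnb1, Ccnb2, Ccnd3, Pcna and Tyms, and reads of these genes may have been split with them.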

How the data were processed

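Deposited tables held gene counts per library, whole numbers by Ensembl ID, per the file headers counts of uniquely aligning reads. Salmon and GRCm38 are named in the submitters' processing notes, with no role or version, and whether strand was used is not given in the sources used here. From these counts edgeR 4.0.16 (R 4.3.3) was run with TMM scaling, filterByExpr by group (minimum count 10) and a robust quasi-likelihood fit over all 34 libraries with 1 coefficient per group. P-values were Benjamini-Hochberg adjusted over 25705 genes. A call needed an adjusted p under 0.05 and a log2 fold change of at least 1, or for tests over several groups a range of at least 1. Summed list levels used unscaled library totals. The fit was tested on simulated counts. Replicates differed by more than sampling noise (chi-square per degree of freedom at least 24.8). Alternatives were DESeq2 1.42.0 and its size factors, no count filter, fits of the compared groups alone, a replicate block, no fold minimum, and leaving out each library or those with at least 1000 CPM of acinar genes. Members and lists were chosen with earlier results of these data known. Values are given for Mki67, Top2a, Ccnb1, Rrm2, Mcm5, the D-type cyclins, the CDK inhibitors and up to 6 further called members per comparison by smallest adjusted p, and log2 fold changes for other called members.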

Additional observations from a re-analysis of the deposited data

Results flagged for a closer look

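For 9 members, the difference between mesothelial cells and fibroblasts itself differed between omentum, mesentery and epididymal fat (edgeR's quasi-likelihood test of the difference). The adjusted p was 6.4312e-07 for Ccnd2, 0.0020213 for Rrm2, 0.0021657 for Cdc45, 0.0027317 for Ccnd1, 0.0062858 for E2f1, 0.0068993 for Ube2c, 0.028968 for Ccnb1, 0.040892 for Cdc20 and 0.043813 for Tpx2. The 3 depot effects spanned 2.48 log2 units for Ccnd2, 2.005 for Rrm2, 1.92 for Cdc45, 2.03 for Ccnd1, 1.43 for E2f1, 2.69 for Ube2c, 2.49 for Ccnb1, 2.68 for Cdc20 and 2.16 for Tpx2.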

How the results depend on the processing

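Of 139 member calls, 72 held in every alternative run for them and 67 ended in at least 1, of which 54 ended when a single library was left out; 0 changed direction. Counts of called members were 4 for mesothelial cells over fibroblasts on average, 11 in omentum, 7 in mesentery and 7 in epididymal fat, 9 for the difference between depots, 15 for omentum over mesentery, 12 for omentum over epididymal and 3 for mesentery over epididymal mesothelial cells, 26 across fibroblasts and 45 over the 9 single tissues. Leaving out 1 library gave, in that order, 3 to 5, 4 to 12, 2 to 9, 4 to 7, 6 to 11, 9 to 14, 4 to 13, 3 to 5, 21 to 30 and 40 to 51. With no fold minimum the average count was 14, that in mesentery 11 and that over single tissues 68. DESeq2 and its size factors each gave 7 in omentum. With no count filter the counts were 19 between depots, 23 for omentum over mesentery and 19 for omentum over epididymal mesothelial cells. With the 8 libraries rich in acinar genes left out, mesentery mesothelial cells and omentum fibroblasts kept too few libraries to judge counts of calls. The cause of the changes was not tested. No label pairs the libraries by replicate number: same-numbered deviations correlated at -0.37 to 0.35 over 9 pairs of the same depot, 2 of them over 0.1, and 44 of all 177 pairs were over 0.1. In mesentery and omentum fibroblasts all 3 pairs were (0.13, 0.52 and 0.15). These groups were picked out after the values were seen, and whether their libraries share something was not tested. With a replicate block the counts were 4, 14, 8, 8, 11, 16, 15, 3, 30 and 47 in the order above. Depth limits the members of lowest level most, such as Ccne1 and Cdkn2a.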
